A study of Homo sapiens with 17 samples.

Results

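The genes described here are 42 human genes that act in mitosis, chosen by symbol from a list of the mitotic machinery and looked up in a count table of 63187 genes. All 42 symbols matched the table, and 41 passed the filter on low counts, among 18999 genes tested. NUSAP1, a microtubule-binding spindle protein, was the exception: it was listed with 0 counts in every one of the 9 RNA libraries and was not tested. The cells were HepG2, a human hepatocellular carcinoma line that the labels call wild type, grown for 4 days with 5-azacytidine, a cytidine analogue that traps DNA methyltransferases on DNA. The 3 groups were untreated cells (0 µM), cells at 2 µM and cells at 10 µM. RNA-seq gave 3 libraries per dose. ATAC-seq, which reads out open chromatin from the cuts of a transposase, gave 3 libraries in each of the 0 and 2 µM groups and 2 in the 10 µM group. The replicates are called biological by the submitters without a statement that they were separate cultures, so every p-value measures only the spread between these libraries. In the deposited table of normalized counts the columns named for replicates 2 and 3 at 10 µM hold each other's counts, so the numbers of those libraries are given here as in the raw count table, the table used.

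Entry into mitosis is driven by CDK1 bound to a cyclin, which phosphorylates many proteins. Polo-like and Aurora kinases then build the spindle, the spindle checkpoint holds the anaphase-promoting complex back until every kinetochore is attached, and loss of securin and cyclin B lets the chromatids part. The transcripts of this machinery peak in G2 and mitosis, driven by the MuvB complex with MYBL2 and then FOXM1, and their promoters often hold a cell cycle genes homology region (CHR) near the start and CCAAT boxes, which NF-Y binds, upstream of it. They are low in cells that have left the cycle, so their sum is often read as a proliferation score, and in bulk RNA fewer cycling cells and less RNA per cycling cell cannot be told apart.

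At 10 µM all 41 tested mitosis genes fell relative to 0 µM, and none rose. Their median log2 change was -3.70, beside a median of -0.02 over all genes tested, of which 25.1% fell and 23% rose (edgeR's quasi-likelihood test, adjusted p under 0.05, as in every call of a rise or fall below). The changes ran from -4.93 for CENPA to -1.49 for ECT2, and the middle of the list lay between -4.26 and -2.88 (quartiles). Every 10 µM library was below every 0 µM library for all 41 genes, which was true of 29% of all genes. Together the 42 genes took 0.0623% ± 0.0124 of all counts at 10 µM and 0.528% ± 0.103 at 0 µM (SD, n = 3 each).

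**Figure D1:**
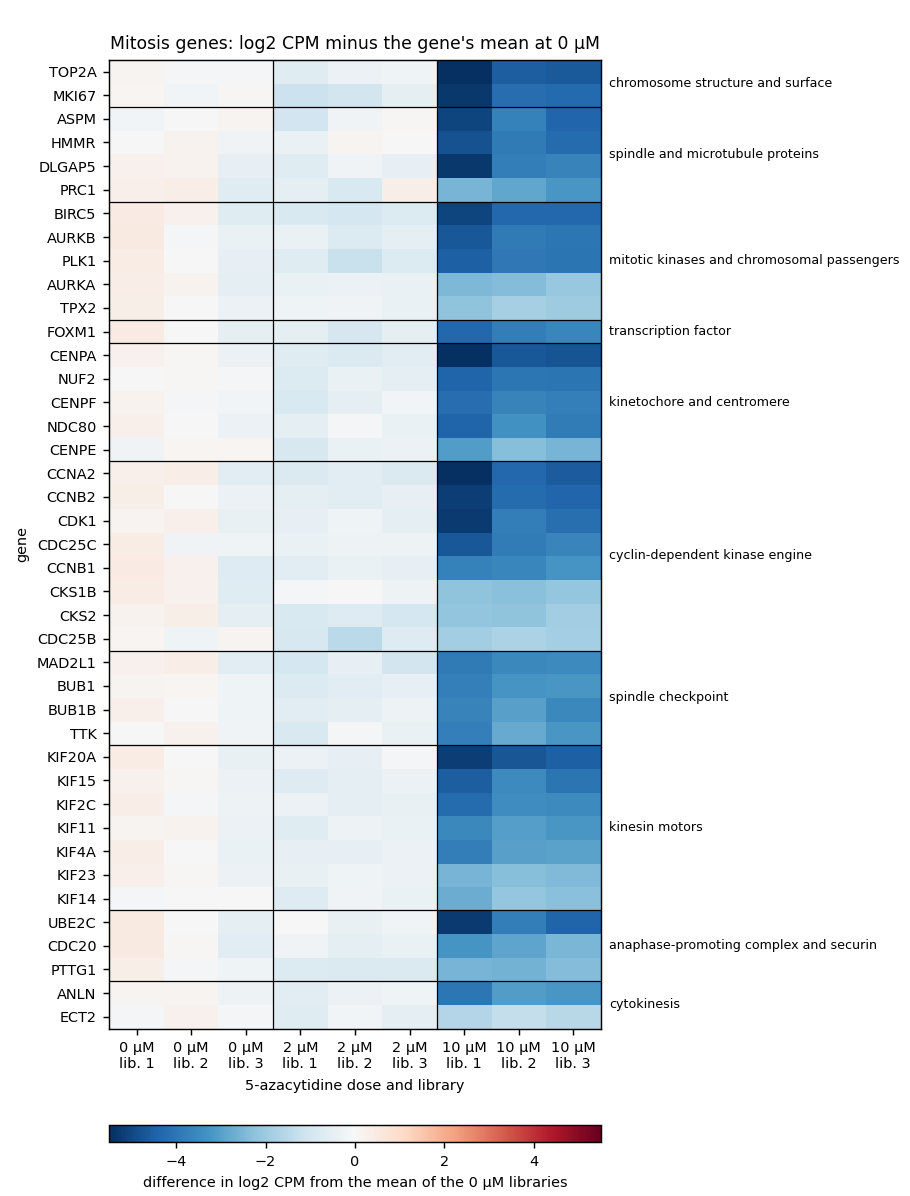
Each row is a tested mitosis gene, grouped by role, and each column a library. The colour is the difference in log2 CPM (counts scaled to a common library size) from the gene's mean at 0 µM, and all 41 rows are lowest in the 3 libraries at 10 µM.

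Of the 42 genes 36 matched RefSeq's promoter table (GRCh38.p14), with 46 annotated starts, and their sequences show how often the elements named above occur. The CHR was searched as TTTGAA or its reverse complement TTCAAA and the CCAAT box as CCAAT or ATTGG, from 250 bases before to 50 bases after the start. A CHR was present in 27 of the 36 genes (75%), against 18.2% of all genes in the table, 13.9% of those tested in RNA, and 16.4% of the other genes that fell at 10 µM. A CCAAT box was present in 29 genes (80.6%), against 39.7% of all genes, and both were present in 61.1%, against 7.26%. A CHR within the last 60 bases before the start or the first 30 after it was found in 22 genes (61.1%), against 5.28% of all genes, a window chosen after the positions were seen. These matches are letters in a window and do not show that a factor binds there.

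The sequences below run from 150 bases before the annotated start to 30 after it, 5′ to 3′ on the gene's strand, with CHR and CCAAT matches of either strand in capitals. CENPA, CCNB2, PLK1 and CDK1 are shown as genes whose RNA had log2 changes of -4.16 or below and whose promoters carry both elements. CKS2 and ECT2 carry them too and had 2 of the smallest falls. PTTG1 has CCAAT boxes but no TTTGAA or TTCAAA match in the searched window.
CENPA promoter, chr2:26785906-26786085, plus strand: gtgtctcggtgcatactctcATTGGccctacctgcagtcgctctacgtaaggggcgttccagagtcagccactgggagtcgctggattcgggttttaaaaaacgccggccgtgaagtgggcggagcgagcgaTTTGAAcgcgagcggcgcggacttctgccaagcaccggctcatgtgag
CCNB2 promoter, chr15:59104996-59105175, plus strand: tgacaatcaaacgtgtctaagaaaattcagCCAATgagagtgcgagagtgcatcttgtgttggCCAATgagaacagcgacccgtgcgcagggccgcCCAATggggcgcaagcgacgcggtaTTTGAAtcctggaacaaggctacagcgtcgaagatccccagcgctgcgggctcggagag
PLK1 promoter, chr16:23678739-23678918, plus strand: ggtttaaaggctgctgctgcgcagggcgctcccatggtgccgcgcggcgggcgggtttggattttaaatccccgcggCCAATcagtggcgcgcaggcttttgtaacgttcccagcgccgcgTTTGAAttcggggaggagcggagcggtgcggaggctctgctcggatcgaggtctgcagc
CDK1 promoter, chr10:60778328-60778507, plus strand: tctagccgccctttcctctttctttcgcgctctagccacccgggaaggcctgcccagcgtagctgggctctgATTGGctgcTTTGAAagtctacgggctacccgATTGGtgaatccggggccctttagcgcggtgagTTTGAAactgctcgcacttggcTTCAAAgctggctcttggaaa
CKS2 promoter, chr9:89311045-89311224, plus strand: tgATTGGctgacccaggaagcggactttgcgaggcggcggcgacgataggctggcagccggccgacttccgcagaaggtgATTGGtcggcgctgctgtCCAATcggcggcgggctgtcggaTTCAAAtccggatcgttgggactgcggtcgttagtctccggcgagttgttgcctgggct
ECT2 promoter, chr3:172750576-172750755, plus strand: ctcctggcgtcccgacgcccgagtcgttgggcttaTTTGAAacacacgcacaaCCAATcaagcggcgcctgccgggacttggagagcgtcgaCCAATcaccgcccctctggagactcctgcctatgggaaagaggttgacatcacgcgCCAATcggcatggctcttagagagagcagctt
PTTG1 promoter, chr5:160421705-160421884, plus strand: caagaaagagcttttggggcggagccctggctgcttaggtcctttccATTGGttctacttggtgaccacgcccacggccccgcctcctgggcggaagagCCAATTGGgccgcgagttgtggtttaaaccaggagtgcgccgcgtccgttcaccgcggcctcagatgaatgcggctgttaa

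In CCNB2, PLK1 and CKS2 the CHR begins at position -29 from the annotated start, and in CENPA at position -18. In PTTG1 a pair of CCAAT boxes on opposite strands overlap and read as 1 run of capitals. The size of the fall did not separate genes with and without a TTTGAA or TTCAAA match. The median RNA change at 10 µM was -3.84 in 26 tested genes with a match and -3.59 in 9 without one. The ranges were -4.93 to -1.49 and -4.82 to -1.83. No other spelling of the CHR was searched, so genes without a match are not shown to lack the element.

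Library depth and markers of cell types were looked at beside these values. The libraries held 35553052 to 46430168 RNA counts, of which the mitosis genes took 19249 to 33277 in the 10 µM libraries, 148740 to 202975 at 2 µM and 181653 to 234056 at 0 µM. Replicate 3 at 0 µM had the lowest value of its dose for 35 of the 41 genes, and replicate 1 at 10 µM for 37 of them. Mitochondrial genes took 0.235% and 0.275% of counts in replicates 3 at 2 and 0 µM and 0.0683% to 0.150% in the other 7 libraries. Of 10 hepatocyte markers 9 were matched, among them AFP, APOB and HNF4A, none at 0 in any library, and all 9 fell at 10 µM with a median log2 change of -5.47. Their summed level was 662 to 958 CPM at 10 µM and 22160 to 36010 CPM at 0 µM. The summed level of 6 leukocyte markers was 57.9 to 89.7 CPM at 10 µM and 2335 to 3455 CPM at 0 µM, nearly all of it LYZ, and PTPRC was at 0 in every library. Sums were 10.4 to 15.4 CPM at 10 µM and 29.5 to 55.7 CPM at 0 µM for 7 fibroblast and stellate cell markers, with LUM at 0 in all 10 µM libraries. For 6 endothelial markers they were 0.407 to 0.971 CPM at 10 µM and 1.49 to 10.6 CPM at 0 µM, with KDR and TEK at 0 at 0 µM. The part of any of these in the results on mitosis genes was not tested. With total counts in place of TMM scaling the median of all genes moved to 0.24 at 10 over 0 µM, where 3747 genes then fell and 5788 rose, against 4767 and 4371 with TMM, and the median of the mitosis genes was -3.45.

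The CDK1 engine fell as a whole, with 8 of 8 genes and a median log2 change of -3.80 at 10 over 0 µM. CDK1, the kinase that starts mitosis, had 221, 237 and 146 CPM at 0 µM, 146, 169 and 134 CPM at 2 µM, and 5.10, 13.9 and 11.2 CPM at 10 µM. The 10 µM libraries lay far below the others, with replicate 1 the lowest of them, and the 2 and 0 µM libraries overlapped. The log2 change at 10 over 0 µM was -4.32 (SE 0.35, adjusted p = 1.1e-06). CCNB1, the cyclin B that CDK1 needs to enter mitosis, had 364, 315 and 162 CPM at 0 µM, 176, 205 and 195 CPM at 2 µM, and 20.2, 22.1 and 27.7 CPM at 10 µM. Its 0 µM libraries spread widely, and replicate 3 at 0 µM lay below all 2 µM libraries but well above every 10 µM library. This gave a log2 change of -3.59 at 10 over 0 µM (SE 0.29, adjusted p = 1.1e-06). CCNB2, a second B-type cyclin, had 128, 104 and 81.8 CPM at 0 µM, 70.9, 68 and 76.1 CPM at 2 µM, and 2.80, 5.53 and 4.99 CPM at 10 µM, and no libraries of different doses overlapped. The fit gave -4.55 on the log2 scale at 10 over 0 µM (SE 0.28, adjusted p = 2.1e-07). CDC25C, a phosphatase that removes the inhibitory phosphates from CDK1, had 47.2, 30.9 and 30.3 CPM at 0 µM, 27.3, 28.7 and 29.3 CPM at 2 µM, and 1.41, 2.46 and 2.85 CPM at 10 µM. From the fit, the log2 change at 10 over 0 µM was -4.00 (SE 0.29, adjusted p = 6.4e-07). CCNA2, the cyclin A of S phase and G2, averaged 7.91 ± 3.20 CPM at 10 µM and 221 ± 74.2 CPM at 0 µM (SD, n = 3 each), a log2 change of -4.80.

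The small falls of the CDK1 engine were those of CDC25B, CKS2 and CKS1B. CDC25B, a phosphatase that activates cyclin-CDK complexes at the start of mitosis, had 69.1, 54.3 and 71.7 CPM at 0 µM, 34.6, 23.4 and 39.2 CPM at 2 µM, and 17.4, 19.4 and 17.9 CPM at 10 µM. The doses did not overlap, and much of the difference already lay between 2 and 0 µM. At 10 over 0 µM the log2 change came to -1.83 (SE 0.22, adjusted p = 2.4e-05). CKS2, a small subunit bound to CDK1, had 128, 139 and 75.6 CPM at 0 µM, 61.8, 66.8 and 56.9 CPM at 2 µM, and 24.4, 23.7 and 29.1 CPM at 10 µM. On the log2 scale it changed by -2.15 at 10 over 0 µM (SE 0.23, adjusted p = 9.9e-06). CKS1B, its paralogue, which also serves the SCF-SKP2 ubiquitin ligase, had 95.5, 84.3 and 45 CPM at 0 µM, 69.1, 72.6 and 58 CPM at 2 µM, and 15.2, 14.3 and 16.5 CPM at 10 µM. Its 2 µM libraries lay inside the range of the 0 µM libraries. Its log2 change at 10 over 0 µM was -2.29 (SE 0.26, adjusted p = 1.4e-05). The fitted level at 10 µM was thus 28.1%, 22.5% and 20.5% of that at 0 µM for CDC25B, CKS2 and CKS1B, against 5.02% for CDK1 and 4.26% for CCNB2.

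All 5 mitotic kinases and chromosomal passengers fell at 10 µM, with a median of -4.16. PLK1, the polo-like kinase of centrosomes and kinetochores, had 167, 131 and 93.8 CPM at 0 µM, 79, 54 and 75.6 CPM at 2 µM, and 5.65, 8.38 and 7.87 CPM at 10 µM. The 3 doses did not overlap. The log2 change at 10 over 0 µM was -4.16 (SE 0.28, adjusted p = 3.4e-07). AURKA, the Aurora kinase of the spindle poles, had 375, 330.1 and 199 CPM at 0 µM, 227, 229.7 and 226 CPM at 2 µM, and 52.6, 56.2 and 67.8 CPM at 10 µM. Its 2 µM libraries were nearly equal and lay within the spread of the 0 µM libraries. This gave a log2 change of -2.36 at 10 over 0 µM (SE 0.23, adjusted p = 5.4e-06). TPX2, which activates AURKA on microtubules, averaged 72.3 ± 9.91 CPM at 10 µM and 292 ± 64.1 CPM at 0 µM, a log2 change of -2.01. BIRC5 (survivin), which anchors the chromosomal passenger complex, had 317, 278 and 146 CPM at 0 µM, 131, 118 and 141 CPM at 2 µM, and 7.01, 11.9 and 11.7 CPM at 10 µM. The fit gave -4.59 on the log2 scale at 10 over 0 µM (SE 0.32, adjusted p = 4.6e-07). AURKB, the kinase of that complex, changed by -4.17. AURKA and TPX2, which work as a pair at the poles, thus kept 19.5% and 24.8% of their fitted 0 µM level at 10 µM, against 5.57% for AURKB, 5.59% for PLK1 and 4.14% for BIRC5.

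The 4 spindle checkpoint genes fell by similar amounts, from -3.70 for MAD2L1 to -3.21 for TTK. BUB1, a checkpoint kinase of the kinetochore, had 204, 198 and 156 CPM at 0 µM, 109, 121 and 134 CPM at 2 µM, and 13.7, 19.4 and 20.1 CPM at 10 µM. From the fit, the log2 change at 10 over 0 µM was -3.39 (SE 0.22, adjusted p = 2.4e-07). BUB1B (BUBR1), which holds CDC20 in the checkpoint complex, had 96.5, 79.4 and 68.3 CPM at 0 µM, 53.1, 54.8 and 66.1 CPM at 2 µM, and 6.29, 10.2 and 6.89 CPM at 10 µM. At 10 over 0 µM the log2 change came to -3.38 (SE 0.24, adjusted p = 5.1e-07). In both genes the 2 µM libraries lay below all 0 µM libraries, and the 10 µM libraries below all others. BUB1B overlaps a readthrough gene, and reads of overlapping genes cannot be told apart here, since the strand setting of the counting is not given.

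The 5 kinetochore and centromere genes had a median change of -3.86. CENPA, the histone variant that marks centromeres, had the largest fall of all 41 genes, with 56.1, 49.9 and 37.2 CPM at 0 µM, 29.3, 27.2 and 30.3 CPM at 2 µM, and 1.03, 1.86 and 1.76 CPM at 10 µM. The 3 doses did not overlap, and each 10 µM library was under 2 CPM. On the log2 scale it changed by -4.93 at 10 over 0 µM (SE 0.28, adjusted p = 1.3e-07). Among all 18999 genes tested, 344 had a lower log2 change. NUF2, part of the NDC80 complex that grips microtubules, had 54.3, 55.2 and 49 CPM at 0 µM, 31.7, 40.5 and 36.9 CPM at 2 µM, and 2.49, 3.40 and 3.28 CPM at 10 µM. Its log2 change at 10 over 0 µM was -4.11 (SE 0.22, adjusted p = 1.0e-07). NDC80 itself changed by -3.81, and the large kinetochore proteins CENPF and CENPE by -3.86 and -2.63.

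The anaphase machinery of the list held 3 genes, which all fell. UBE2C, the ubiquitin-conjugating enzyme of the anaphase-promoting complex, had 142, 100.4 and 71.4 CPM at 0 µM, 98.1, 76 and 89 CPM at 2 µM, and 2.61, 7.13 and 4.71 CPM at 10 µM. The log2 change at 10 over 0 µM was -4.44 (SE 0.36, adjusted p = 1.3e-06). PTTG1 (securin), which blocks separase until anaphase, had 138, 105 and 93.2 CPM at 0 µM, 65.3, 63 and 64.1 CPM at 2 µM, and 18.8, 18 and 21.4 CPM at 10 µM. Its 2 µM libraries were nearly identical and stood below every 0 µM library. This gave a log2 change of -2.53 at 10 over 0 µM (SE 0.19, adjusted p = 8.1e-07). CDC20, the activator of the complex that the checkpoint restrains, averaged 11.1 ± 2.79 CPM at 10 µM and 83.5 ± 29.98 CPM at 0 µM, a log2 change of -2.91.

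All 7 kinesins fell, with a median of -3.26. KIF20A, a motor of the central spindle, had 162, 120.2 and 91 CPM at 0 µM, 96.7, 88.2 and 114 CPM at 2 µM, and 3.30, 4.59 and 5.32 CPM at 10 µM. The fit gave -4.82 on the log2 scale at 10 over 0 µM (SE 0.28, adjusted p = 1.4e-07). KIF11 (Eg5), which pushes the spindle poles apart, had 163, 172 and 118 CPM at 0 µM, 92.5, 124 and 115 CPM at 2 µM, and 12.8, 18.3 and 16 CPM at 10 µM. From the fit, the log2 change at 10 over 0 µM was -3.26 (SE 0.23, adjusted p = 4.5e-07). KIF15, which can share that task, changed by -3.97, the microtubule-depolymerising KIF2C by -3.69 and the chromokinesin KIF4A by -3.21. KIF23 and KIF14, which act in cytokinesis, had the smallest changes of the group at -2.46 and -2.37. KIF20A lies across the gene CDC23 in RefSeq's annotation, 1 of 8 mitosis genes that overlap another protein-coding gene.

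Of the 5 spindle and microtubule proteins 4 were tested, and these 4 fell with a median of -4.19. HMMR, a spindle assembly factor, had 87.9, 101 and 77.8 CPM at 0 µM, 69, 98.2 and 89.2 CPM at 2 µM, and 3.23, 6.03 and 4.67 CPM at 10 µM. Its 2 and 0 µM libraries were intermixed, and its 10 µM libraries lay far below both. At 10 over 0 µM the log2 change came to -4.26 (SE 0.26, adjusted p = 2.1e-07). ASPM, a spindle pole protein that sets spindle orientation, had 126, 141 and 154 CPM at 0 µM, 67.8, 121 and 147 CPM at 2 µM, and 4.19, 10.7 and 6.75 CPM at 10 µM. On the log2 scale it changed by -4.28 at 10 over 0 µM (SE 0.36, adjusted p = 1.8e-06). DLGAP5, which stabilises spindle fibres, changed by -4.12. PRC1, which bundles the central spindle, had few reads, with 3 to 4 counts per library at 10 µM and 14 to 28 at 0 µM, and changed by -2.88 (SE 0.62, adjusted p = 0.0019).

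The cytokinesis genes differed in the size of their fall. ANLN, which scaffolds the contractile ring, had 234, 233 and 173 CPM at 0 µM, 139, 168 and 177 CPM at 2 µM, and 13.4, 25.2 and 22.9 CPM at 10 µM. Its log2 change at 10 over 0 µM was -3.38 (SE 0.26, adjusted p = 7.7e-07). ECT2, the exchange factor that switches on RhoA at the division plane, had 130.3, 164 and 129 CPM at 0 µM, 89.3, 125 and 101 CPM at 2 µM, and 45.3, 56.2 and 48.8 CPM at 10 µM. Its 10 µM libraries were below all others but kept 35.5% of the fitted 0 µM level, the highest share of the 41 genes. The log2 change at 10 over 0 µM was -1.49 (SE 0.19, adjusted p = 4.3e-05).

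The chromosome genes TOP2A and MKI67 fell to a few percent of their level in untreated cells. TOP2A, the topoisomerase that untangles sister chromatids, had 853, 719 and 732 CPM at 0 µM, 479.8, 615 and 647 CPM at 2 µM, and 16.9, 33.1 and 31.1 CPM at 10 µM. This gave a log2 change of -4.83 at 10 over 0 µM (SE 0.28, adjusted p = 1.4e-07). MKI67 (Ki-67), which coats mitotic chromosomes and is the usual stain for cycling cells, had 214, 179 and 210.3 CPM at 0 µM, 87.8, 101 and 142 CPM at 2 µM, and 5.10, 11.1 and 10.4 CPM at 10 µM. Its 3 doses did not overlap. The fit gave -4.50 on the log2 scale at 10 over 0 µM (SE 0.31, adjusted p = 4.5e-07). FOXM1, the transcription factor that drives many of the other genes, had 77, 58.6 and 40.9 CPM at 0 µM, 40.5, 29.7 and 39.8 CPM at 2 µM, and 2.87, 4.05 and 4.71 CPM at 10 µM. Replicate 3 at 0 µM came close to the highest 2 µM library, and the 10 µM libraries lay far below both. From the fit, the log2 change at 10 over 0 µM was -3.92 (SE 0.29, adjusted p = 6.5e-07). FOXM1 overlaps ITFG2 and RHNO1 in the annotation.

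**Figure D2:**
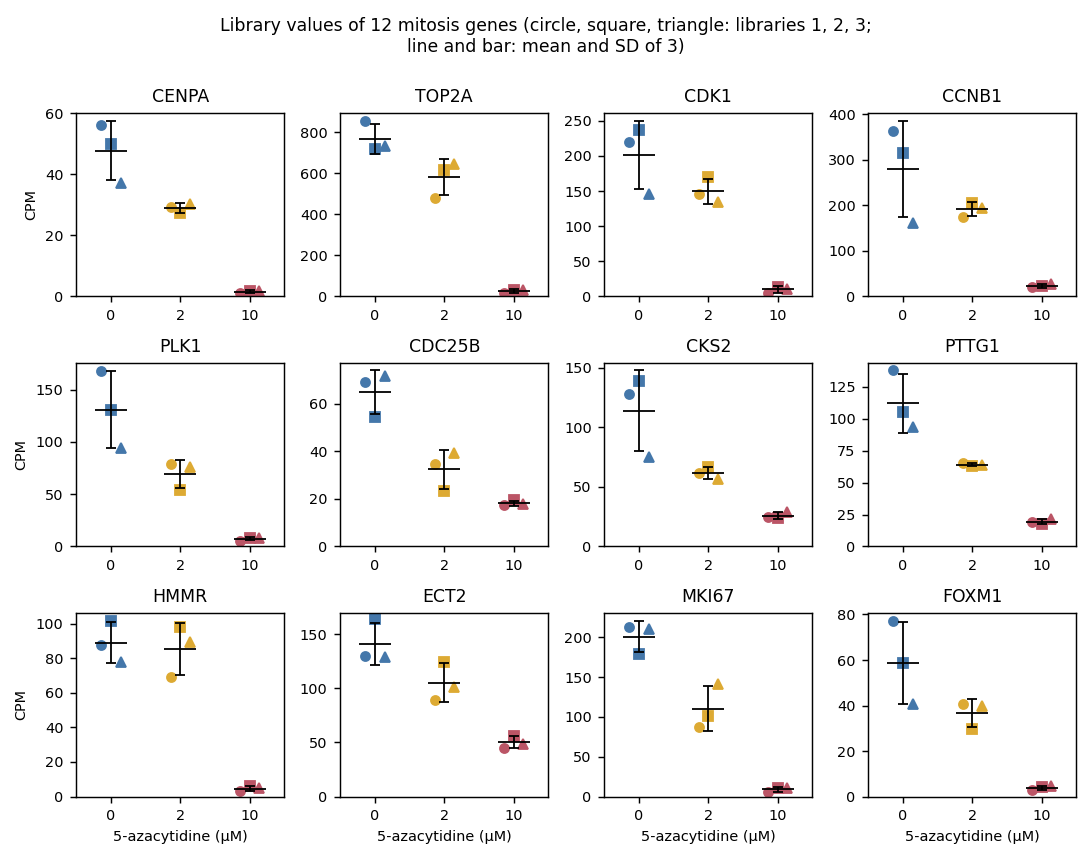
CPM of 12 mitosis genes against the dose of 5-azacytidine, with a point per library and the mean and SD of the 3 libraries of each dose. CENPA, TOP2A, CDK1 and MKI67 are near the baseline at 10 µM, whereas CDC25B and ECT2 are not, and HMMR overlaps between 2 and 0 µM.

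At 2 µM the median log2 change of the mitosis genes was negative but far smaller than at 10 µM, and few of them passed. CDC25B, CKS2 and PTTG1 fell, none rose, and 38 of 41 did not pass the test, where 1.06% of all genes fell and 3.22% rose. CDC25B changed by -1.0 (SE 0.21, adjusted p = 0.019). CKS2 changed by -0.88 (SE 0.22, adjusted p = 0.042). PTTG1 changed by -0.81 (SE 0.18, adjusted p = 0.027). PLK1 came closest among the others, with a log2 change of -0.91 (SE 0.24, adjusted p = 0.054). The 41 genes all had a negative log2 change, from -1.0 for CDC25B to -0.06 for HMMR, with a median of -0.45 beside -0.01 over all genes. HMMR turned positive with total counts, without replicate 2 at 0 µM and without replicate 1 at 2 µM, and CKS1B and UBE2C turned positive without replicate 1 at 0 µM (values are given with the alternatives). An unadjusted p under 0.05 was reached by 20 of the 41, all lower at 2 µM. Of all 18999 genes 3538 reached it, 1501 of them lower. In 20 of the 41 every 2 µM library was below every 0 µM library, against 8.01% of all genes. Markers also differed at this dose. Of the 9 hepatocyte markers 3 fell at 2 over 0 µM, AFP by 1.94, TTR by 1.68 and APOB by 1.16, and their summed level was 10830 to 18480 CPM at 2 µM. LYZ fell by 1.04, CD14, a monocyte marker, rose by 2.196 and PECAM1, an endothelial marker, rose by 2.69. Sums at 2 µM were 1124 to 1699 CPM for the leukocyte markers, 27.8 to 50.9 CPM for the fibroblast and stellate cell markers and 2.91 to 8.74 CPM for the endothelial markers, and their part in the result at this dose was not tested. The summed level of the mitosis genes was 4089 ± 314 CPM at 2 µM and 5798 ± 1055 CPM at 0 µM (SD, n = 3 each).

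The number of calls at 2 µM depended on which libraries were used. The replicate numbers pair the RNA libraries at 2 and 0 µM, and with the number as a block in a fit of these doses CDC25B and MKI67 passed, and CKS2 and PTTG1 did not, 2 calls in all. MKI67 changed by -0.87 in that fit (adjusted p = 0.044), CKS2 by -0.82 (adjusted p = 0.053) and PTTG1 by -0.77 (adjusted p = 0.0502). Without replicate 3 at 0 µM, 12 mitosis genes fell, among them AURKA, BIRC5, CCNA2, CCNB1, CENPA, FOXM1 and PLK1. Of all 19733 genes tested in that fit 462 fell. No gene passed without replicate 1 at 0 µM, replicate 1 at 2 µM or replicate 2 at 2 µM, 1 gene passed without replicate 2 at 0 µM or without any single 10 µM library, and 2 passed without replicate 3 at 2 µM. Without replicates 3 at 2 and 0 µM together, 14 mitosis genes fell, and 788 of all 19257 genes tested. The falls over all genes thus moved too, from 202 of 18999 in the main fit. They numbered 96 without replicate 1 at 0 µM, 29 without replicate 1 at 2 µM and 32 without replicate 2 at 2 µM. Without replicate 2 at 0 µM they numbered 172, and without replicate 3 at 2 µM 432. With single 10 µM libraries left out they numbered 108 to 137.

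**Figure D3:**
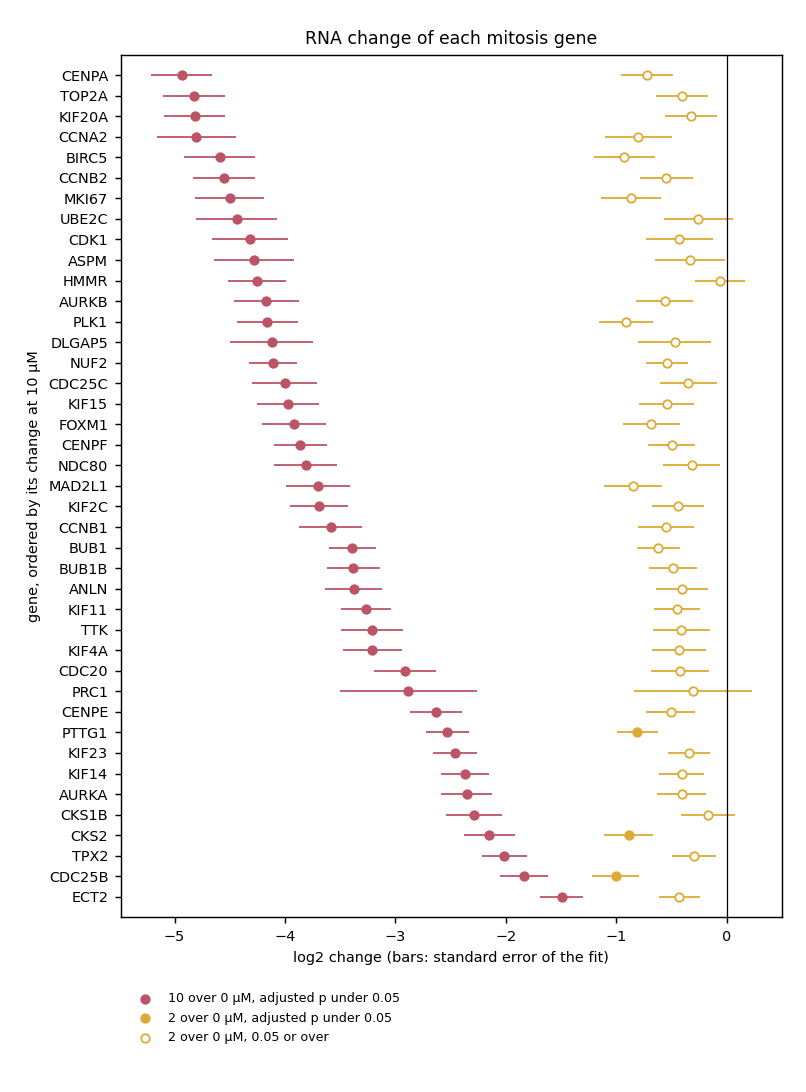
Log2 change of each of the 41 tested mitosis genes at 2 over 0 µM and at 10 over 0 µM, with the standard error of the fit, ordered by the change at 10 µM. Filled points passed an adjusted p of 0.05: all 41 at 10 µM, and CDC25B, CKS2 and PTTG1 at 2 µM.

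Between 10 and 2 µM all 41 genes fell, with a median of -3.24, and 21.6% of all genes fell. Every 10 µM library was below every 2 µM library for all 41, which held for 28.5% of all genes. KIF20A had the largest change at -4.50 (SE 0.27, adjusted p = 3.8e-07) and CDC25B the smallest at -0.83 (SE 0.21, adjusted p = 0.0084). ECT2 changed by -1.07 and CKS2 by -1.27, and the other 38 genes had log2 changes of -1.72 or below. The comparisons of 10 with 2 and of 10 with 0 µM share the 10 µM libraries, so they are not independent.

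Genes of the same processes outside the list showed how far the pattern reached at 10 µM. Of 46 other mitosis genes 42 fell and 1 rose, with a median log2 change of -2.91. PBK and the NDC80-complex subunits SPC25 and SPC24 changed by -4.60, -4.57 and -4.46. BUB3, a checkpoint protein that also works outside mitosis, rose to 434 CPM at 10 µM, against 258 CPM at 0 µM (log2 change 0.75, SE 0.20, adjusted p = 0.0080). CKAP5, KNSTRN and MAD1L1 did not pass. None of the 46 passed at 2 over 0 µM, where 1.06% of all genes fell. Still, 45 of the 46 had a negative log2 change at that dose, against 50.9% of all genes. Their median was -0.38, beside -0.45 for the 41 tested genes of the list.

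The subunits and some partners of the anaphase-promoting complex, whose activator CDC20 and enzyme UBE2C are on the list, did not move as a group. Of 16 genes 2 fell and 2 rose, with a median of 0.03. The falls were those of FBXO5 (EMI1), an inhibitor of the complex, at -2.28 (SE 0.28, adjusted p = 2.8e-05), and of ANAPC5 at -0.68. The rises were those of CDC27 at 0.66 and ANAPC2 at 0.52.

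Among 20 MuvB, MYB and retinoblastoma family regulators, which switch the mitotic promoters on or off, 12 fell and 3 rose, with a median of -0.73. MYBL2, which joins MuvB to activate these promoters, averaged 10.9 CPM at 10 µM and 140 CPM at 0 µM, a log2 change of -3.68 (SE 0.40, adjusted p = 1.1e-05). The activator E2F1 changed by -2.62, E2F2 by -4.17 and the repressor E2F8 by -3.75. The MuvB subunit LIN54, which contacts the CHR, fell by 1.90, whereas RB1 did not pass (-0.22, adjusted p = 0.44). E2F7, E2F3 and E2F6 rose by 1.24, 0.68 and 0.64.

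Of 34 S-phase genes 30 fell at 10 µM and none rose, with a median of -2.00. TK1, a thymidine kinase, changed by -3.83, GINS1, part of the replicative helicase, by -3.34, and the licensing factor CDT1 by -3.10. Of 14 inhibitors of cell cycle entry and checkpoint kinases 13 were tested, 7 fell and 5 rose. CDKN2A and CDKN2B, the INK4 inhibitors of CDK4 and CDK6, rose at 10 µM by 3.30 and 2.75. They also rose at 2 µM, CDKN2A to 11.4 CPM against 1.75 CPM at 0 µM (log2 change 2.69, SE 0.37, adjusted p = 0.0020) and CDKN2B to 10.1 CPM against 3.09 CPM (1.70, SE 0.31, adjusted p = 0.0089). CDKN1A (p21), GADD45A and SFN rose at 10 µM by 1.56, 1.20 and 1.24, and CDKN1B (p27) fell by 1.46. CDKN3 and CDKN2C, which are themselves induced in cycling cells, changed by -4.87 and -4.40.

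**Figure D4:**
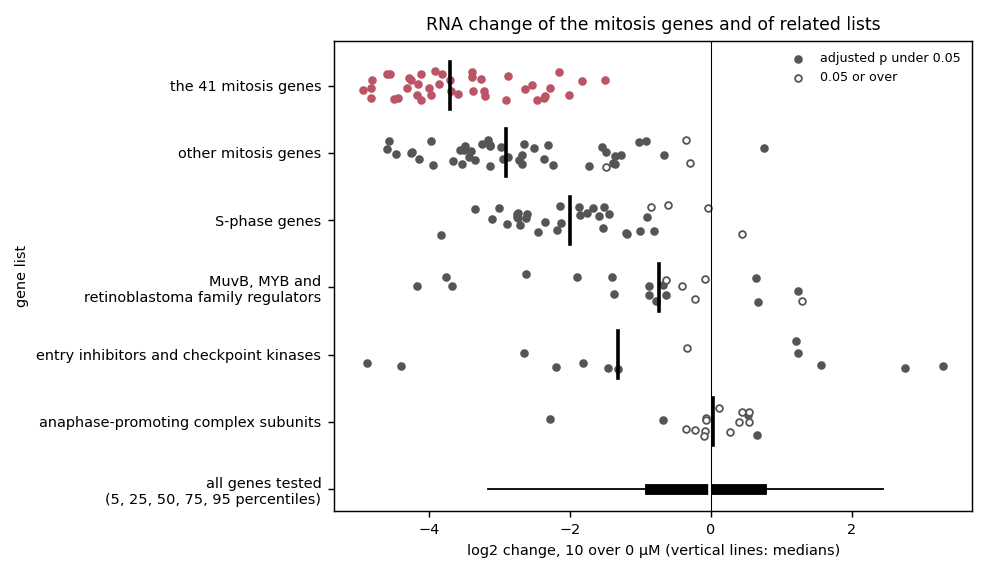
Log2 change in RNA at 10 over 0 µM for the 41 tested mitosis genes and for 5 related lists, with a point per gene, filled where the adjusted p is under 0.05, and a line at each median. The lowest bar gives percentiles of all 18999 genes tested. The median of the mitosis genes (-3.70) lies below the 5th percentile (-3.16). That of the list labelled anaphase-promoting complex subunits (0.03), which also holds partners of the complex, lies at the centre.

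In log2 units accessibility at the promoters of the mitosis genes changed far less than their RNA, though the units of the assays are not directly comparable. The authors' annotation gives 68 of 58372 peaks to 37 of the 42 genes, 49 of them promoter peaks of 35 genes. At 10 over 0 µM 10 promoter peaks rose and 4 fell, where 20.5% of all promoter peaks rose and 14.9% fell, and 35 did not pass. The excess of rises over falls shrank or was lost in some alternatives: 5 rose and 5 fell without replicate 1 at 0 µM, and 7 rose and 6 fell in a fit of only these doses. The rises numbered 6 without replicate 3 at 0 µM or replicate 1 at 10 µM. The 49 promoter peaks had a median log2 change of 0.05, beside 0.09 for all promoter peaks. Of the 49, 39 (79.6%) were within 0.5 of 0, as were 70.5% of all promoter peaks. Small changes were also usual at promoter peaks of the other genes whose RNA fell at 10 µM. Of those 5462 peaks 68% were within 0.5 of 0, with a median of -0.03, and 686 rose and 1366 fell. Taking the promoter peak with the most reads of each gene, 6 rose, 3 fell and 26 did not pass, with a range of -1.60 to 0.81. That peak is not always at the start: the -1.60 is from an ANLN peak at position -484. Across the 34 genes with both values the change of the peak with the most reads was set beside that of the RNA. The Pearson correlation was 0.29 and the Spearman correlation 0.32, given as a description, since all genes share the same libraries. DESeq2 called 7 of the 49 promoter peaks at 10 µM, 5 of them rises, and a fit of these doses with replicate number blocked called 5, 3 of them rises, against 14 here, and only 2 libraries stand behind the 10 µM values.

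Of the promoters printed above, the windows of CDK1, CCNB2 and PLK1 lay in peaks that did not pass at 10 over 0 µM, and the window of CENPA in a peak whose small rise depended on the libraries used. The CDK1 window lies within the promoter peak at chr10:60778160-60778660, which had 44.1, 56.4 and 54 CPM at 0 µM, 43.6, 43.7 and 46.2 CPM at 2 µM, and 51.5 and 46.8 CPM at 10 µM. The 0 µM libraries overlapped with both other doses, and both 10 µM libraries were above every 2 µM library. At 10 over 0 µM the log2 change came to -0.07 (SE 0.14, adjusted p = 0.69). The CCNB2 window lies within chr15:59104827-59105327, with 31.4 and 35.2 CPM at 10 µM and 29.1, 35.1 and 36.2 CPM at 0 µM, a log2 change of -0.02. The PLK1 window lies within chr16:23678613-23679113, which changed by -0.17 (SE 0.14, adjusted p = 0.32). The CENPA window lies within chr2:26785645-26786145, which rose, with 90.3 and 89.8 CPM at 10 µM against 62.1, 74.9 and 73.7 CPM at 0 µM (log2 change 0.35, SE 0.14, adjusted p = 0.026), and the call was lost without replicate 1 or 3 at 0 µM or either 10 µM library (0.23 to 0.36 with each library left out). The peak beside it, chr2:26786200-26786700, rose by 0.78, and changed by 0.52 without replicate 2 at 0 µM, where it did not pass. A further PLK1 promoter peak, chr16:23676814-23677314, had 9.22, 10.6 and 8.33 CPM at 0 µM, 25.8, 22.3 and 20.05 CPM at 2 µM, and 10.6 and 20.01 CPM at 10 µM. Replicate 1 at 10 µM lay inside the range of the 0 µM libraries, and the 2 µM libraries were the highest. The rise at 10 over 0 µM was 0.64 (SE 0.23, adjusted p = 0.017), and the change was 0.08 without replicate 2 at 10 µM. That call was also lost without replicate 1 or 3 at 0 µM. CCNB1's promoter peak at chr5:69166852-69167352 had 46.8, 54.4 and 53.2 CPM at 0 µM, 43.6, 46.1 and 43.2 CPM at 2 µM, and 53.9 and 45 CPM at 10 µM. On the log2 scale it changed by -0.05 at 10 over 0 µM (SE 0.14, adjusted p = 0.77).

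Promoter peaks rose at several genes whose RNA fell. The 10 rises among the 49 promoter peaks were near the share of all promoter peaks (20.5%). The PTTG1 peak at chr5:160421849-160422349, which shares 36 bases with the printed window, had 19.2, 20.9 and 16.1 CPM at 0 µM, 15.1, 17.5 and 20.2 CPM at 2 µM, and 30.7 and 35.9 CPM at 10 µM. Both 10 µM libraries were above all others. Its log2 change at 10 over 0 µM was 0.81 (SE 0.16, adjusted p = 7.0e-05). The peak over the printed CKS2 window, chr9:89310785-89311285, had 17.2, 25.2 and 24.2 CPM at 0 µM, 13.4, 19.9 and 21.8 CPM at 2 µM, and 40.8 and 22.8 CPM at 10 µM. Its rise rests on replicate 1 at 10 µM: the log2 change was 0.53 (SE 0.20, adjusted p = 0.022) and 0.00 without that library, and the call was also lost without replicate 1 or replicate 3 at 0 µM. The CKS2 promoter peak at chr9:89310245-89310745 had 11.9, 9.92 and 11.2 CPM at 0 µM, 7.90, 12.7 and 11.7 CPM at 2 µM, and 12.5 and 12 CPM at 10 µM. The log2 change at 10 over 0 µM was 0.17 (SE 0.21, adjusted p = 0.51). CKS1B has a promoter peak at chr1:154974330-154974830 that had 27.6, 30.6 and 25 CPM at 0 µM, 19.2, 19.3 and 29.9 CPM at 2 µM, and 49.5 and 35.9 CPM at 10 µM. Both 10 µM libraries were above all others. It changed by 0.63 (SE 0.17, adjusted p = 0.0021) and by 0.35 without replicate 1 at 10 µM, where it did not pass. Its other promoter peak, at chr1:154975003-154975503, had 10.4, 10.5 and 10.4 CPM at 0 µM, 13.4, 11.7 and 16.1 CPM at 2 µM, and 20.8 and 11.1 CPM at 10 µM. Replicate 2 at 10 µM was close to the 0 µM libraries, and the change was 0.66, and 0.07 without replicate 1 at 10 µM. The promoters of UBE2C, at chr20:45812279-45812779, and CDC20, at chr1:43358678-43359178, rose by 0.38 and 0.42. Both calls were lost without replicate 1 at 0 µM or replicate 2 at 10 µM, and that of UBE2C also without replicate 3 at 0 µM. UBE2C changed by 0.25 without replicate 2 at 10 µM.

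Falls at promoters were those of ANLN, BIRC5, CCNA2 and MKI67. The ANLN peak at chr7:36388837-36389337, placed by the authors at position -484 from a start, had 29.3, 33.4 and 27.8 CPM at 0 µM, 22, 23.4 and 22.5 CPM at 2 µM, and 11.4 and 8.05 CPM at 10 µM. Both 10 µM libraries were the lowest. This gave a log2 change of -1.60 at 10 over 0 µM (SE 0.18, adjusted p = 3.7e-09). The ANLN promoter peaks at the start itself, chr7:36389427-36389927 and chr7:36390158-36390658, changed by -0.10 and -0.18 and did not pass. BIRC5 had 16.2 and 10.4 CPM at 10 µM and 22.6, 21.6 and 22.3 CPM at 0 µM in its peak at chr17:78213909-78214409 (log2 change -0.69, SE 0.18, adjusted p = 0.0017). The CCNA2 peak at chr4:121823633-121824133 changed by -0.39 and an MKI67 peak at chr10:128125727-128126227 by -0.62. The CCNA2 call was lost without replicate 1 at 0 µM or replicate 2 at 10 µM, and the MKI67 call without replicate 3 at 0 µM or either 10 µM library. Of the promoter peaks called at 10 over 0 µM, those of PTTG1 and NUSAP1, which rose, and of ANLN and BIRC5, which fell, passed under every alternative tried. BIRC5 changed by -1.09 without replicate 1 at 10 µM.

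Outside promoters the changes were larger. Of 19 such peaks 4 rose and 7 fell at 10 over 0 µM, where 34.6% of all peaks outside promoters rose and 34.1% fell. The largest fall was in a peak at chr16:23674191-23674691, annotated to PLK1 and to a 3′ untranslated region and at position -2965 from the start of the PLK1 transcript that the authors' annotation pairs with it, with 27.9, 23.4 and 23.3 CPM at 0 µM, 19.9, 17.2 and 14.5 CPM at 2 µM, and 2.41 and 3.91 CPM at 10 µM. The fit gave -3.02 on the log2 scale at 10 over 0 µM (SE 0.24, adjusted p = 3.1e-12). An intergenic peak at chr17:40419791-40420291, near TOP2A, had 30.6, 27.2 and 27.5 CPM at 0 µM, 21.6, 22.7 and 17.3 CPM at 2 µM, and 8.99 and 6.31 CPM at 10 µM. From the fit, the log2 change at 10 over 0 µM was -1.84 (SE 0.20, adjusted p = 8.6e-10). The largest rise was in an intergenic peak at chr18:2627788-2628288, annotated to NDC80, with 4.12, 3.40 and 2.84 CPM at 0 µM, 7.22, 7.56 and 4.36 CPM at 2 µM, and 17 and 19.4 CPM at 10 µM. At 10 over 0 µM the log2 change came to 2.40 (SE 0.25, adjusted p = 5.9e-10). In the first intron of ANLN a peak at chr7:36393787-36394287 had 18.2, 14.7 and 15 CPM at 0 µM, 15.8, 13.8 and 15.5 CPM at 2 µM, and 6.17 and 5.002 CPM at 10 µM, and it fell by 1.47 at 10 over 0 µM. Another at chr7:36392634-36393134 had 5.82, 5.98 and 7.20 CPM at 0 µM, 8.93, 10.3 and 9.002 CPM at 2 µM, and 15.6 and 10.7 CPM at 10 µM, and it rose by 1.08. In both the 10 µM libraries did not overlap with those of the other doses. Whether any of these peaks acts on the gene it is annotated to was not tested.

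At 2 over 0 µM 1 promoter peak rose and 4 fell, where 7.04% of all promoter peaks rose and 5.01% fell. The median of the 49 was -0.21, beside -0.08 for all promoter peaks. The rise was in a PLK1 promoter peak at chr16:23676814-23677314, by 1.23 (SE 0.20, adjusted p = 3.7e-05), and the falls were in peaks of BIRC5 (-0.61), FOXM1 (-0.53), DLGAP5 (-0.45) and ANLN (-0.43). The call for BIRC5 was lost without replicate 3 at 2 µM, that for DLGAP5 without replicate 3 at 0 µM or replicate 2 at 2 µM, and that for FOXM1 without replicate 3 at 0 µM or replicate 1 or 2 at 2 µM. The fall of the ANLN peak was lost without replicate 2 at 0 µM or without any single 2 µM library. At 10 over 2 µM 12 promoter peaks rose and 2 fell, where 24.5% of all promoter peaks rose and 13.7% fell.

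**Figure D5:**
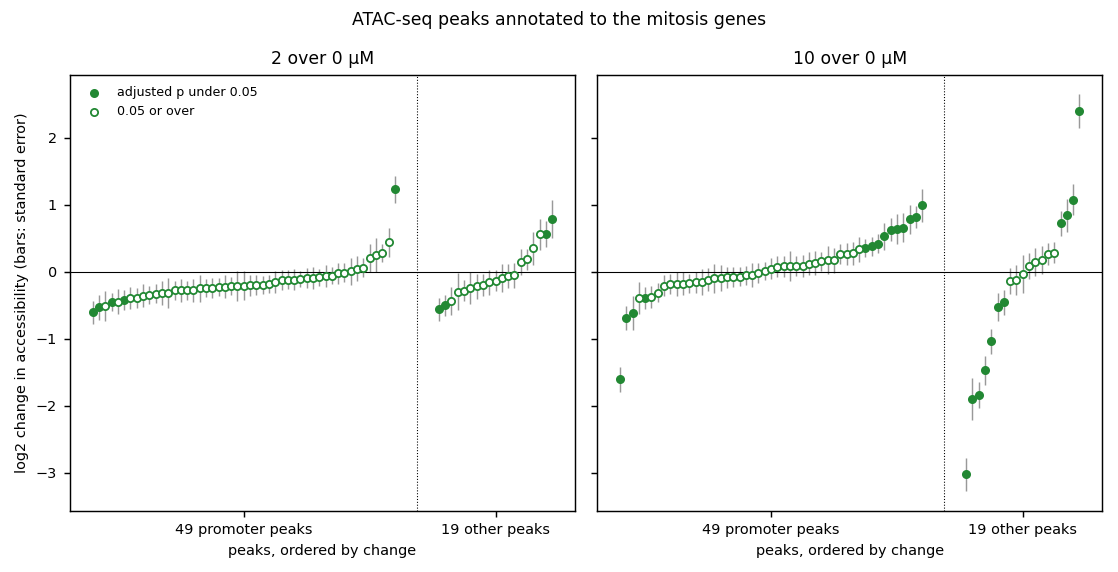
Log2 change in accessibility of the 68 peaks annotated to mitosis genes at 2 over 0 µM and at 10 over 0 µM, ordered by change within promoter peaks and within other peaks, with the standard error of the fit. At 10 µM 39 of 49 promoter peaks are within 0.5 of 0, as are 70.5% of all promoter peaks. The ends of the range, -3.02 and 2.40, are peaks outside promoters.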

How the data were processed

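RNA and accessibility were measured in HepG2 cells after 4 days with 0, 2 or 10 µM 5-azacytidine. The values used are raw read counts per gene and per peak, as deposited by the authors. A normalized signal table, which the authors deposited after dividing each library's counts by a size factor, served only to check the columns. The tools DiffBind 3.12.0, DESeq2 1.42.1, HTSeq 2.0.4 and HISAT2 2.2.1 and the build hg38 are named per the submitters' processing notes; their roles, the strand setting and the peak caller are not given in the sources used here. Reads of overlapping genes therefore cannot be told apart, and 22 of the 42 genes overlap another RefSeq gene.

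The test was that of edgeR 4.0.16 under R 4.3.3 (quasi-likelihood F-test, TMM scaling, the package's filter on low counts, all libraries of an assay in 1 fit with a mean per dose). P-values were adjusted by Benjamini-Hochberg over all 18999 genes or all 58372 peaks, and every adjusted p printed is from this test unless another tool is named. Levels are counts per library after TMM scaling (CPM), and levels of different genes were not compared, since transcript lengths were not used. Log2 changes were fitted with 0.125 as prior count, and their SE was taken as the size of the change over the root of F. The script was tested on simulated counts. Depth was 35553052 to 46430168 RNA counts and 2896671 to 7864321 ATAC counts in peaks per library, without molecular identifiers.

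Same-numbered RNA libraries at 2 and 0 µM deviated together (r = 0.374, 0.422 and 0.378 over genes), so the numbers pair these libraries; no other same-numbered group of libraries did so throughout. Alternatives were another scaling (total counts, RLE), DESeq2 1.42.0, no filter, fits of only the doses compared, the replicate block, each library left out, and peaks within 1000 bases of a start.

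The genes, the related lists and the markers were chosen with earlier results of these data known. All 42 genes may be named. Library values are given for MKI67, TOP2A, CDK1, CCNB1, PLK1, AURKA, FOXM1, CKS1B, CKS2 and PTTG1 and, in each role, for the 2 genes with the smallest adjusted p at 10 over 0 µM, and CDC25B was added after its values were seen. In other lists up to 4 genes per comparison come from that rule, and the others named there (such as BUB3, PBK, RB1 and CDKN1A) were chosen after their values were seen. Library values of peaks are given for the 4 with the smallest adjusted p per direction at 10 over 0 µM and for promoter peaks of CKS1B, CKS2, PTTG1, CCNB1 and CDK1; those of CENPA, CCNB2 and BIRC5 and of a further PLK1 promoter peak were added after they were seen. The alternatives were run for these rule-chosen peaks and for promoter peaks called at 10 over 0 or 2 over 0 µM.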

Additional observations from a re-analysis of the deposited data

How the results depend on the processing

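Every fall of the 41 tested mitosis genes at 10 over 0 µM and at 10 over 2 µM passed under all 18 settings, the main one included. At 2 over 0 µM the count of 3 became 1 with total counts, 8 with DESeq2, 8 without the filter, 0 in a fit of only these doses and 14 without replicates 3 of both doses, and ran from 0 to 12 with each library left out. With the replicate number as a block it was 2 over these doses and 3 over all doses. Over all genes, 539 of 18999 fell with DESeq2, 673 of 34824 without the filter and 57 of 17782 in a fit of only these doses. With the block 314 of 17782 fell over these doses and 302 of 18999 over all doses. Total counts moved the median of all genes at 2 over 0 µM from -0.01 to 0.15, with 904 rises and 94 falls against 611 and 202. HMMR changed by 0.096 with total counts. With single libraries left out, the highest changes at 2 over 0 µM were 0.091 for HMMR, 0.042 for CKS1B and 0.0298 for UBE2C, and the lowest were -0.16, -0.45 and -0.48.

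For the peaks of mitosis genes at 10 over 0 µM, 25 passed, against 16 with DESeq2 and 12 with the replicate block over these doses; of the promoter peaks 14 passed, against 7 and 5, and 9 to 14 with each library left out. The median of all 68 peaks ran from -0.084 to 0.035 with each library left out. At 2 over 0 µM 9 passed, against 5 within 1000 bases of a start, 16 with the block over these doses and 4 to 13 with each library left out. Of the promoter peaks 5 passed, against 8 with RLE factors, 9 in a fit of only these doses, 11 with that block and 2 to 9 with each library left out. At 10 over 2 µM 25 passed, against 16 near a start, 16 with DESeq2 and 15 to 27 with each library left out, and of the promoter peaks 14, against 9 with DESeq2 and 8 to 18. At 2 over 0 µM the CKS2 peak at chr9:89310245-89310745 changed by 0.01, but by -0.027 with RLE factors, -0.042 with DESeq2, -0.022 in a fit of only these doses, -0.0073 with the block over all doses, -0.039 with it over these doses and -0.11 to 0.15 with each library left out. The PTTG1 promoter peak ran from -0.21 to 0.026, and the CKS1B peak at chr1:154975003-154975503 at 10 over 2 µM from -0.33 to 0.51. The CCNA2 promoter peak changed by 0.00025 at 10 over 2 µM, but by -0.085 with total counts, -0.0018 with RLE factors, -0.0025 with DESeq2, -0.0044 in a fit of only these doses, -0.026 with the block over all doses and -0.0987 to 0.065 with each library left out. With each library left out, the FOXM1 peak at 10 over 0 µM ran from -0.53 to 0.0101, the CENPA peak at chr2:26786200-26786700 at 2 over 0 µM from -0.0604 to 0.30, and the BIRC5 peak at 10 over 2 µM from -0.44 to 0.13. Other changes of call with the replicate block are part of these counts. The cause of these moves was not tested.

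The ATAC libraries at 10 µM number 2, so each leave-one-out there rests on 1 library assumed to vary like the other doses. NUSAP1 and PRC1 had too few counts for a firm value.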

Other observations

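NUSAP1 and PRC1 had no reads or few. NUSAP1 was listed with 0 counts in all 9 libraries. No other RefSeq gene overlaps it, and overlaps in the annotation behind the counts were not checked. Its promoter peak at chr15:41332924-41333424 had 6.79, 4.62 and 6.44 CPM at 0 µM, 7.90, 4.47 and 7.64 CPM at 2 µM, and 11.4 and 11.7 CPM at 10 µM, and both 10 µM libraries were above all others (log2 change 0.99, SE 0.25, adjusted p = 0.00084). A further peak annotated as its promoter, chr15:41283692-41284192, changed by 0.26 (adjusted p = 0.13). PRC1 had 3 to 33 counts per library and lies across the antisense gene PRC1-AS1, and its promoter peak at chr15:90994537-90995037 changed by 0.09 (adjusted p = 0.68). The cause of the low counts was not tested.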
